A study of Homo sapiens with 10 samples.

Results

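Knockout abundance was compared directly between 22Rv1 cells overexpressing NMYC and parental 22Rv1 cells at the T6 time point of a genome-wide CRISPR screen, with no division by T0. The comparison used 4 of the 10 libraries, chosen by their labels: NMYC T6 replicates 1 and 2, against parental T6 replicates 1 and 2. All sgRNAs entered it. Of 55849 sgRNAs listed, 52035 had a mean of at least 20 counts over the 4 libraries and were kept, and 18064 of 18686 gene symbols had at least 2 kept sgRNAs and were tested. The other 3814 sgRNAs were left out for low counts.

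22Rv1 is a human prostate cancer cell line. The NMYC arm carries overexpressed NMYC, the protein of MYCN, and the parental arm does not. For the construct, its promoter and whether the NMYC cells are a single clone, nothing was given in the sources used here. Cells of both arms were infected at a multiplicity of 0.3 with a lentiCRISPRv2_B library that the labels put at 65000 sgRNAs, selected with puromycin, split into duplicate cultures, and passaged every 72 hours for 12 generations at a library coverage of 300x. What T6 counts (days, passages or generations) was not stated there. Both cultures of an arm descend from 1 infection, so every p-value measures spread that arose after it. The readout is genomic DNA, so MYCN expression was not measured and the arm labels could not be checked against it.

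In such a screen each cell carries an integrated sgRNA that directs Cas9 to cut a gene. Cells whose cut gene is needed for growth fall behind and their sgRNA becomes scarcer, while cells that lose a growth-restraining gene gain ground. N-MYC is a basic helix-loop-helix transcription factor that pairs with MAX, is kept stable in part by Aurora kinase A, and drives neuroendocrine forms of prostate cancer. A gene whose loss harms only cells with excess N-MYC is called a synthetic dosage lethal partner, and its sgRNAs would be scarcer in the NMYC arm. The series design asks for such genes, and its title names NEUROG2, a proneural transcription factor.

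The NMYC T6 libraries held 14944879 and 9538593 counts, with a median of 187 and 117 counts per sgRNA. The parental T6 libraries held 12905342 and 8783512 counts, with medians of 169 and 50. Parental replicate 2 stood apart from the other 3 libraries. Its most abundant 1% of sgRNAs held 9.45% of the counts, against 5.35% to 5.79% in the other libraries, and 7.68% of its sgRNAs were at 0 counts, against 3.14% to 5.87%. The reads carry no molecular identifiers, so these depths bear on counting error only, and PCR copies count as separate reads.

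Gene levels are CPM, the counts of the kept sgRNAs of a gene summed and divided by the TMM-scaled library size in units of 1000000 counts. Log2 differences are NMYC minus parental, from the summed counts and relative to the median gene, with a standard error (SE) from the edgeR fit. The SE and the p-values belong to the difference before this centring and do not test the distance from the median gene. Before centring, the median gene stood at -0.21, and at 0.0849 without parental replicate 2. An sgRNA of a named gene counts as lower or higher by the sign of its fitted difference, relative to the median sgRNA. Its CPM can still overlap between the arms.

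Replicates of an arm resembled each other about as much as libraries of different arms did. Over all 55849 listed sgRNAs, which are not independent replicates, the Spearman correlation was 0.533 between the NMYC replicates and 0.478 between the parental replicates. Across arms it was 0.546 and 0.530 with parental replicate 1 and 0.455 and 0.444 with parental replicate 2. The median kept sgRNA differed by 1.02 on the log2 scale between the NMYC replicates and by 1.41 between the parental ones, against 0.950 between NMYC replicate 1 and parental replicate 1. Near-absence of single sgRNAs was counted between and within the arms, at the same limits on raw counts for libraries of unlike depth. The pattern between arms sets limits on every T6 library, and that within an arm on 2 libraries only. The 2 kinds of count therefore do not measure how often loss was shared. At most 2 counts in both NMYC libraries with at least 100 in both parental ones was found for 14 sgRNAs, and the opposite pattern for 22. Within the NMYC arm 1149 sgRNAs had at most 2 counts in replicate 2 and at least 100 in replicate 1, and 251 the reverse. Within the parental arm the same counts were 2077 and 176.

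Parental replicate 2 held the extreme value of many genes. Over all genes tested NMYC replicates 1 and 2 were the highest of the 4 libraries in 19.4% and 18.6%, parental replicate 1 in 16.1% and parental replicate 2 in 45.9%. The lowest value lay in the NMYC libraries in 22.9% and 24.8% of genes, and in the parental libraries in 24.2% and 28.1%. Log2 differences of genes and medians of gene lists that moved by over 1.5 times without parental replicate 2 are therefore given with and without that library.

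**Figure D1:**
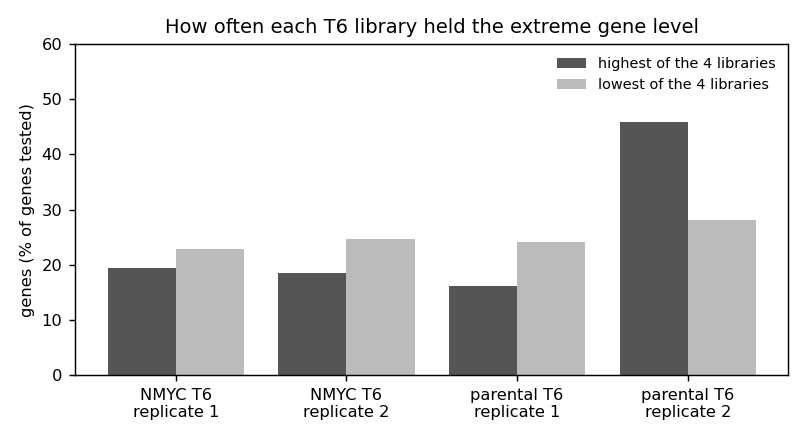
Share of the 18064 tested genes (percent, vertical axis) for which each T6 library had the highest (dark bars) or the lowest (light bars) summed CPM. The NMYC libraries and parental replicate 1 were each highest for 16.1% to 19.4% of genes, and parental replicate 2 was highest for 45.9%.

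No knockout passed the test of a difference between NMYC and parental cells at T6. By edgeR's quasi-likelihood test with Benjamini-Hochberg adjustment 0 of 52035 sgRNAs passed 0.05 as lower in NMYC and 0 as higher (0% each way), and the smallest adjusted p was 0.241. Without adjustment 2185 sgRNAs (4.2%) were lower at a p under 0.05 and 923 (1.77%) were higher. Rank aggregation, which scores a gene by how low its sgRNAs lie in the edgeR ranking, passed 0 genes as lower and 0 as higher (0% each way). Before adjustment it put 903 genes lower (5%) and 932 higher (5.16%). On the summed counts edgeR likewise passed 0 and 0 of 18064 genes (0% each way), with 851 lower (4.71%) and 222 higher (1.23%) unadjusted. Both unadjusted counts use the difference before centring, when the median gene stood at -0.213. That offset enters the split between lower and higher genes. DESeq2 on the same libraries passed 496 lower and 161 higher sgRNAs, and 17 lower and 4 higher genes by summed counts, but by rank aggregation of its p-values 0 and 0 genes.

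DESeq2 also called sgRNAs that cut no gene. Of the 920 kept non-targeting sgRNAs it passed 5 as lower and 3 as higher, 0.870% of them, against 1.27% of the gene-targeting sgRNAs. Leaving out parental replicate 2 gave 0 calls by edgeR at every level. Leaving out parental replicate 1, so that replicate 2 stood alone for its arm and was assumed to vary like the others, gave 1794 lower and 127 higher sgRNAs and 2441 lower and 465 higher genes by summed counts. Non-targeting sgRNAs were called at 3.26% there, against 3.70% of the targeting ones. Leaving out either NMYC library gave 0 calls.

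The unadjusted calls mostly went with the level of parental replicate 2, less so for the higher genes by ranks. A gene called lower mostly has a parental library highest, and a gene called higher a parental library lowest. The call thus in part sets the shares below. Over all genes tested parental replicate 2 was the highest of the 4 in 45.9% and the lowest in 28.1%. Of the 851 genes lower by summed counts, this library was the highest of the 4 in 825 (96.9%), and of the 222 higher genes it was the lowest in 167 (75.2%). Of the 903 genes lower by rank aggregation it was the highest in 837 (92.7%), and of the 932 higher by rank aggregation it was the lowest in 518 (55.6%) and the highest in 160 (17.2%). Parental replicate 1 was the lowest in 321 (34.4%) of those 932 genes, against 24.2% of all genes. Both scores shared 437 lower genes, 51.4% of those by summed counts and 48.4% of those by ranks. They shared 190 higher genes, 85.6% and 20.4% of the 2 lists.

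Both NMYC libraries lay below both parental libraries for 3372 genes (18.7%) and above both for 2708 (15%). With 2 libraries against 2, an exact permutation test of a single gene cannot give a two-sided p below 0.333.

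STXBP2 stood lowest in NMYC cells. Its protein, Munc18-2, helps vesicles fuse at the membrane in secretory cells of the blood. STXBP2 had 1.08 and 0.159 CPM in NMYC replicates 1 and 2, against 18.6 and 117 CPM in parental replicates 1 and 2. Both NMYC libraries lay below both parental ones, and the parental libraries also lay far from each other. The log2 difference was -6.49 ± 1.16 (SE, n = 2 each), with an edgeR adjusted p of 0.0627 by summed counts and 0.509 by rank aggregation. All 3 of its sgRNAs were lower in NMYC, and each passed the count filter through its parental counts alone. One sgRNA had 13 and 0 counts in NMYC against 107 and 344 in parental cells, another 7 and 1 against 20 and 471, and its last one 1 and 1 against 199 and 0. Parental replicate 2 was the higher parental library for 2 of them and at 0 counts for the last. Without parental replicate 2 the log2 difference was -4.93 and the edgeR adjusted p 0.993.

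STXBP2 passed the summed-count test under several other settings. Its edgeR adjusted p was 0.0099 with median-of-ratios size factors, 0.0226 with factors from non-targeting sgRNAs and 0.0391 with no filter on low counts, and over all alternatives it ran from 7.6e-10, without parental replicate 1, to 1. By rank aggregation it passed under none. At T0, where each arm has 1 library by its label, it had 5.12 CPM in NMYC and 0.149 CPM in parental cells, and at T12 0.981 and 4.62 CPM in NMYC, against 1.29 and 2.24 CPM in parental cells. The high parental level at T6 was thus not seen in the parental libraries before or after it.

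The next smallest p by summed counts on the lower side fell on MRPL46, GOLGA8B, LOC100507462 and TBC1D1. MRPL46, a protein of the large mitochondrial ribosomal subunit, had 3.14 and 0.558 CPM in NMYC, against 23.8 and 113 CPM in parental cells (log2 difference -4.97 ± 1.05 SE; edgeR adjusted p = 0.157). TBC1D1, a Rab GTPase-activating protein of glucose transporter traffic, had 0.668 and 3.35 CPM in NMYC, against 12.1 and 134 CPM in parental cells (-4.98 ± 1.10 SE; edgeR adjusted p = 0.216). In both genes parental replicate 2 was the highest library by a wide margin and parental replicate 1 the next. GOLGA8B (-4.93) is a golgin with near-identical copies, so the target of its sgRNAs is uncertain, and LOC100507462 (-4.85) has no match in the RefSeq gene table. Without parental replicate 2 the values were -3.75 for MRPL46, -2.67 for TBC1D1, -2.96 for GOLGA8B and -2.90 for LOC100507462, none of them past the threshold.

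Rank aggregation put LRRC8C, STXBP2, TBL1Y, GRAMD1C and ZNF707 lowest among genes with 3 sgRNAs, with adjusted p between 0.509 and 0.577. LRRC8C, a subunit of the volume-regulated anion channel, had 21.4 and 19.1 CPM in NMYC, against 19.7 and 189 CPM in parental cells. Parental replicate 1 lay between the NMYC libraries, and the log2 difference of -2.16 became -0.04 without parental replicate 2. Of its sgRNAs, 2 had 4 and 1 and 8 and 0 counts in NMYC against 46 and 964 and 30 and 353 in parental cells, and the third had 404 and 239 against 269 and 4.

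ZNF707, a zinc finger gene, was less dependent on a single library. It had 5.91 and 21.8 CPM in NMYC, against 66.1 and 167 CPM in parental cells, a log2 difference of -2.86 ± 0.91 SE and -2.33 without parental replicate 2. Of its 3 sgRNAs, 2 were lower in both NMYC libraries than in both parental ones, at 48 and 120 counts against 753 and 577, and at 67 and 154 against 404 and 458. The third rested on parental replicate 2 alone, with 132 counts there and 0 in the other 3 libraries. ZNF707 was also lower at T12, at 29.2 and 6.63 CPM in NMYC against 171 and 47.6 CPM in parental cells, and at T0, at 51.1 CPM in NMYC against 151 CPM in parental cells. The edgeR adjusted p at T6 was 0.752 by summed counts and 0.577 by ranks.

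TBL1Y, a Y-linked relative of the corepressor component TBL1X, had all 3 sgRNAs lower in NMYC. It had 17.0 and 28.9 CPM in NMYC, against 47.3 and 372 CPM in parental cells (log2 difference -2.98 ± 1.09 SE; edgeR adjusted p = 0.752). Parental replicate 1 lay above both NMYC libraries, and replicate 2 far above all. The value was -1.12 without parental replicate 2, and the close copies of this gene leave the target of its sgRNAs uncertain.

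On the higher side RCOR1 stood first by summed counts. Its protein, CoREST, is the scaffold that joins the demethylase LSD1 to histone deacetylases and works with the neural repressor REST. RCOR1 had 20.9 and 28.1 CPM in NMYC, against 0.400 and 0.143 CPM in parental cells. Both NMYC libraries were similar and both parental libraries were near 0. The log2 difference was 6.55 ± 1.47 (SE, n = 2 each; edgeR adjusted p = 0.432), and it was 5.83 without parental replicate 2 and 7.59 without parental replicate 1. Its 2 kept sgRNAs gave similar values, with 240 and 263 counts in NMYC against 6 and 0 in parental cells, and 166 and 89 against 1 and 1. Both passed the count filter through their NMYC counts alone, so their agreement is in part selected and is no separate support. With no filter on low counts the log2 difference of RCOR1 was 6.10 (edgeR adjusted p = 0.568). With 7 counts or fewer in each parental library, the fitted size of the difference rests on few molecules. At T0 RCOR1 had 12.0 CPM in NMYC and 18.7 CPM in parental cells, and at T12 16.9 and 2.31 CPM in NMYC, against 7.24 and 0.559 CPM in parental cells. REST, the partner of CoREST, had 22.9 and 24.1 CPM in NMYC against 6.86 and 8.75 CPM in parental cells at T6, a log2 difference of 1.80 ± 1.07 SE that did not pass (edgeR adjusted p = 0.839). The REST sgRNAs had 305 and 281, 82 and 0, and 59 and 21 counts in NMYC, against 50 and 40, 2 and 1, and 68 and 20 in parental cells. Only the first did not overlap between the arms. REST had 10.6 CPM in NMYC against 129 CPM in parental cells at T0, and 46.3 and 75.1 against 1.49 and 15.3 CPM at T12.

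Behind RCOR1 came RHOB (log2 difference 4.61), ACTL8 (4.37), HPS1 (4.03) and ZBTB21 (3.93), all with an edgeR adjusted p of 0.752. RHOB is a small GTPase of the actin cytoskeleton and endosomes. It had 53.7 and 9.33 CPM in NMYC, against 1.14 and 1.86 CPM in parental cells, and of its sgRNAs one had 350 and 0 counts in NMYC and 0 in both parental libraries. HPS1, which acts in the making of lysosome-related organelles, had 55.5 and 20.7 CPM in NMYC, against 1.31 and 4.16 CPM in parental cells. With no filter on low counts RHOB stood at 4.23 and HPS1 at 3.47, while ACTL8 (4.37) and ZBTB21 (3.93) kept their values. In each of the 4 genes both NMYC libraries lay above both parental libraries, and without parental replicate 2 the log2 differences were 4.69, 3.74, 4.77 and 3.33. None passed there either (edgeR adjusted p of 0.798 to 0.993).

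Rank aggregation put RPL26, MYH15, VCPIP1, CLDN2 and CNTN5 highest among genes with 3 sgRNAs, with adjusted p between 0.691 and 0.826. VCPIP1, a deubiquitinase that works with the ATPase VCP in Golgi reassembly, had 64.9 and 55.8 CPM in NMYC, against 14.97 and 7.60 CPM in parental cells (log2 difference 2.62 ± 0.83 SE; 1.93 without parental replicate 2). CNTN5, a neural adhesion molecule, had 94.7 and 58.8 CPM in NMYC, against 19.3 and 10.0 CPM in parental cells (2.60 ± 0.81 SE; 1.92 without it). In both genes the groups did not overlap and 0 of 3 sgRNAs were lower in NMYC. At T12 VCPIP1 had 25.4 and 137 CPM in NMYC against 17.6 and 9.88 CPM in parental cells, the same side as at T6, but at T0 it had 16.7 CPM in NMYC against 123 CPM in parental cells.

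RPL26 and MYH15 ranked high on some of their sgRNAs only. RPL26, a protein of the large ribosomal subunit, had 2 sgRNAs with 265 and 120 and 524 and 273 counts in NMYC against 4 and 0 and 39 and 5 in parental cells. Its remaining sgRNA had 80 and 156 counts in NMYC against 127 and 417 in parental cells. The summed level was 44.7 and 43.8 CPM in NMYC, between the 9.71 and 60.5 CPM of the parental libraries, and the log2 difference of 0.55 was 2.11 without parental replicate 2. MYH15, a myosin heavy chain gene, had one sgRNA with 172 and 440 counts in NMYC and 0 in both parental libraries, while its summed level overlapped between the arms (log2 difference -0.12; -0.04 without parental replicate 2).

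**Figure D2:**
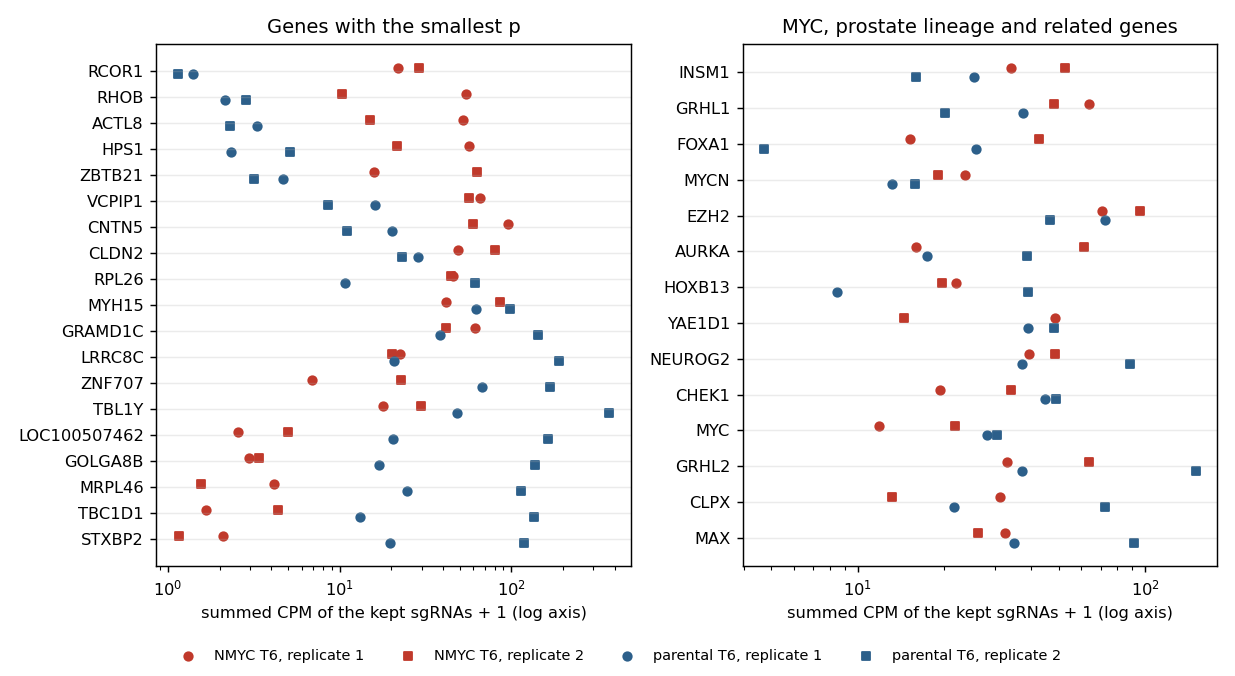
Summed CPM plus 1 (horizontal log axis) in the 4 T6 libraries, with NMYC in red and parental in blue, circles for replicate 1 and squares for replicate 2. The left panel holds the genes with the smallest p in either direction and the right panel MYC, prostate lineage and related genes. On the left the blue squares of the lower genes lie far to the right of the other points, while for RCOR1 both red points lie well apart from both blue points.

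The single sgRNAs with the smallest p were nearly absent from both NMYC libraries. They targeted GRAMD1C, TRMT2B, THAP6, S100A3 and AP5Z1, each with an edgeR adjusted p of 0.241. The GRAMD1C sgRNA had 1 and 1 counts in NMYC against 171 and 545 in parental cells. The TRMT2B sgRNA had 0 and 0 against 35 and 581. The THAP6 sgRNA had 2 and 0 against 164 and 953. In each case parental replicate 2 was the highest library, as it was for all of the 20 lower sgRNAs with the smallest p, which had 0 to 9 counts in NMYC, against 14 to 388 in parental replicate 1 and 253 to 1147 in parental replicate 2. The sgRNA against S100A3, a calcium-binding protein of the hair cuticle, had 2 and 0 counts in NMYC against 171 and 597 in parental cells, and that against AP5Z1, a subunit of the adaptor complex AP-5, had 0 and 1 against 75 and 720.

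The other sgRNAs of these 5 genes did not share a difference of this size. GRAMD1C and S100A3 each had another sgRNA that was lower in NMYC, at -0.93 and -0.99 on the log2 scale. GRAMD1C, a sterol transfer protein of the endoplasmic reticulum, had others with 41 and 128 counts in NMYC against 14 and 162 in parental cells, and 1139 and 384 against 472 and 285. TRMT2B, a methyltransferase of mitochondrial RNA, had 94 and 531 against 292 and 44, and 416 and 34 against 248 and 6. The summed differences were -0.61 for GRAMD1C, -0.58 for TRMT2B, -0.98 for THAP6, -0.61 for S100A3 and -1.55 for AP5Z1. All 5 turned positive without parental replicate 2, at 0.04 to 1.02.

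On the higher side the first sgRNAs targeted MYH15, CLDN2, FAM160B1, HNRNPA1 and SOX21, with edgeR adjusted p from 0.282 to 0.419. Parental replicate 2 was the lowest library for 10 of the 20 higher sgRNAs with the smallest p. That against CLDN2, a tight junction claudin, had 329 and 799 counts in NMYC against 11 and 1 in parental cells. That against HNRNPA1, a splicing regulator with many pseudogene copies, had 365 and 437 against 5 and 0 and was the single kept sgRNA of its gene, so no gene value was fitted. FAM160B1, now named FHIP2A, had one with 312 and 339 counts against 1 and 0, and 2 others with 513 and 175 against 240 and 347 and 643 and 633 against 559 and 570. SOX21, a neural transcription factor, had one with 186 and 281 against 0 and 0 and another with 19 and 3 against 295 and 1.

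Across the genome the sgRNAs of a gene mostly split in direction. Of 14403 genes with 3 kept sgRNAs, all 3 lay below the median sgRNA in 12.2% and none in 12.9%, while 2 lay below in 37.6% and 1 in 37.3%.

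Non-targeting sgRNAs spread as widely as the others. The 920 kept ones had a median log2 difference of -0.00 relative to the median sgRNA with an SD of 1.85, and 19.9% of them differed by over 4-fold. The 1414 kept sgRNAs against olfactory receptor, keratin-associated, taste receptor and defensin genes, families mostly expressed in other tissues, had a median of -0.04 with an SD of 1.85 and 22.1% over 4-fold. Among these are sgRNAs against OR51E1 and OR51E2, olfactory receptor genes that prostate cells are known to express. The 49701 sgRNAs against other genes had an SD of 1.90 and 21.7% over 4-fold. Both NMYC libraries lay below both parental ones for 13.2% of non-targeting sgRNAs and above both for 17.8%, against 15.4% and 18% of all kept sgRNAs.

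**Figure D3:**
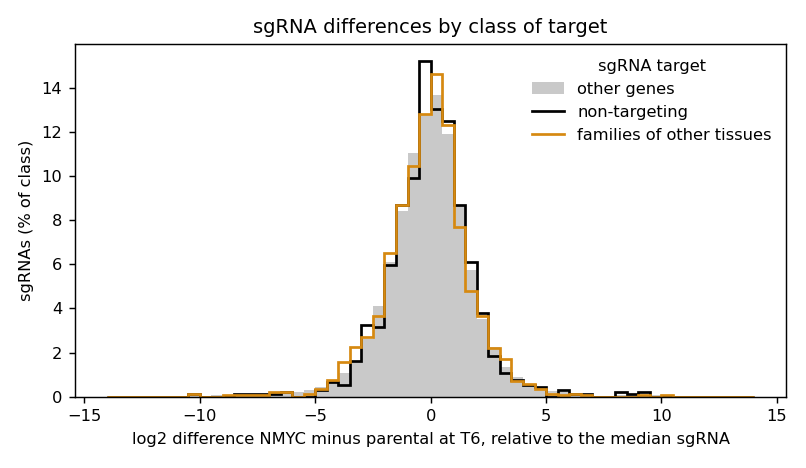
Distribution of the log2 difference NMYC minus parental at T6, relative to the median sgRNA (horizontal axis), for non-targeting sgRNAs (black), sgRNAs against families mostly expressed in other tissues (orange) and all others (grey), as a percent of each class. The 3 outlines lie on each other, with SDs of 1.85, 1.85 and 1.90.

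Gene lists are described next, and a gene may stand in more than 1 of them. The MYC and MAX network lay at the centre of the genome. Of 37 tested members 18 (48.6%) lay below the median gene, against 50% of all genes, and the median was 0.03, which was -0.00 without parental replicate 2. By ranks 2 members were lower and 2 higher before adjustment, and 0 passed after it. Over all genes 5% were lower and 5.16% higher by this count, the shares against which the counts by ranks of every list stand. Both NMYC libraries lay below both parental ones for 29.7% of the members and above both for 24.3%, against 18.7% and 15% of all genes.

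MYCN itself had 22.5 and 17.9 CPM in NMYC, against 12.2 and 14.8 CPM in parental cells. The groups did not overlap, the log2 difference was 0.80 ± 1.01 SE (edgeR adjusted p = 0.942), and its 3 sgRNAs had differences of 1.06, -0.23 and 0.19. MYC had 10.8 and 20.7 CPM in NMYC, against 27.1 and 29.4 CPM in parental cells (-0.63 ± 0.91 SE; -0.86 without parental replicate 2). MAX, the shared partner of both, had 31.5 and 25.2 CPM in NMYC, against 34.0 and 90.6 CPM in parental cells (-0.93 ± 0.79 SE; -0.34 without it). Both genes lay lower in both NMYC libraries without passing the test (edgeR adjusted p = 0.897 and 0.842).

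MGA, a MAX partner that represses MYC targets, was the highest member with 3 sgRNAs. It had 60.2 and 80.9 CPM in NMYC, against 18.7 and 16.3 CPM in parental cells, and all 3 sgRNAs were higher in NMYC. The log2 difference was 2.22 ± 0.78 SE, with an edgeR adjusted p of 0.769, and it was 1.84 without parental replicate 2. At T12 MGA had 48.1 and 163 CPM in NMYC against 56.1 and 66.6 CPM in parental cells, groups that overlap. CCAR1, a coactivator of transcription and the lowest member with 3 sgRNAs, had 18.0 and 54.8 CPM in NMYC, against 63.5 and 207 CPM in parental cells (-1.68 ± 0.93 SE; -0.87 without parental replicate 2).

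Candidate MYC or MYCN synthetic lethal genes lay there too. Of 71 tested members 36 lay below the median gene (50.7%) and the median was -0.04 (0.03 without parental replicate 2), 0 passed, and by ranks 4 were lower and 2 higher without adjustment. AURKA, which stabilises N-MYC protein, had 14.96 and 60.02 CPM in NMYC, against 16.4 and 37.7 CPM in parental cells. The parental values lay between the NMYC ones (log2 difference 0.68 ± 0.85 SE; 1.12 without parental replicate 2). CHEK1, the replication stress kinase, had 18.3 and 33.1 CPM in NMYC, against 43.7 and 47.9 CPM in parental cells (-0.62 ± 0.79 SE; edgeR adjusted p = 0.877). Only 1 of the 3 CHEK1 sgRNAs lay below the median sgRNA. The mitotic kinase TTK was the highest member with 3 sgRNAs at 1.37 (0.83 without parental replicate 2), and the ribosomal RNA transcription factor UBTF the lowest at -1.41. UBTF had 33.1 and 12.1 CPM in NMYC, against 2.91 and 136 CPM in parental cells, and its value was 2.87 without parental replicate 2. Of its 3 sgRNAs only 1 lay below the median sgRNA.

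NEUROG2 had 38.4 and 47.5 CPM in NMYC, against 36.2 and 87.6 CPM in parental cells. Parental replicate 1 lay just below both NMYC libraries and parental replicate 2 above them. The log2 difference was -0.32 ± 0.78 SE (edgeR adjusted p = 0.924) and 0.17 without parental replicate 2. Its 3 sgRNAs had 179 and 52, 196 and 156, and 372 and 388 counts in NMYC, against 44 and 2, 394 and 109, and 195 and 500 in parental cells. At T0 NEUROG2 had 61.4 CPM in NMYC and 0.672 CPM in parental cells, so a ratio to T0 would start from very different levels in the 2 arms. At T12 it had 46.3 and 99.5 CPM in NMYC against 33.1 and 7.52 CPM in parental cells.

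The wider list of neural and neuroendocrine lineage factors lay slightly high. Below the median gene lay 21 of 50 tested members (42%), and the list median was 0.37. It was 0.53 without parental replicate 1 and 0.09 without parental replicate 2. No member passed, and by ranks 5 were lower (10%) and 4 higher (8%) without adjustment. The median level of the list relative to the median gene of its library, on the log2(CPM + 1) scale, was -0.12 and -0.11 in NMYC, against -0.39 and -0.75 in parental cells. INSM1, a zinc finger factor of neuroendocrine cells, had 33.0 and 51.7 CPM in NMYC, against 24.3 and 14.9 CPM in parental cells (log2 difference 1.32 ± 0.82 SE; 0.72 without parental replicate 2; edgeR adjusted p = 0.851). The Notch ligand gene DLL1 was the lowest member, at 12.95 and 6.06 CPM in NMYC against 18.5 and 151 CPM in parental cells (-2.94 ± 0.93 SE; -1.04 without parental replicate 2).

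Prostate luminal genes had 16 of 37 tested members below the median gene (43.2%) and a median of 0.19 (0.13 without parental replicate 2 and 0.30 without parental replicate 1). No member passed, with 2 lower and 2 higher by ranks before adjustment. FOXA1, a pioneer factor of luminal prostate cells, had 14.2 and 41.5 CPM in NMYC, against 24.7 and 3.73 CPM in parental cells (1.17 ± 1.01 SE; 0.10 without parental replicate 2). HOXB13, a prostate homeobox factor, had 21.0 and 18.6 CPM in NMYC, against 7.43 and 38.0 CPM in parental cells (0.01 ± 0.96 SE; 1.33 without parental replicate 2). In both genes the groups overlap.

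The keratin gene KRT18, a luminal marker, was the highest member of that list. It had 25.2 and 38.1 CPM in NMYC, against 10.9 and 2.58 CPM in parental cells, with all 3 sgRNAs higher in NMYC (2.43 ± 1.04 SE; edgeR adjusted p = 0.823; 1.47 without parental replicate 2). GRHL1, a grainyhead-like factor of epithelia, had 62.7 and 47.1 CPM in NMYC, against 36.6 and 19.1 CPM in parental cells (1.19 ± 0.77 SE; 0.51 without parental replicate 2). One of its sgRNAs had 97 and 136 counts in NMYC and 0 in both parental libraries, another 1059 and 428 against 312 and 121, and its last one 64 and 27 against 329 and 12. GRHL2, its relative with 2 kept sgRNAs, had 31.9 and 62.7 CPM in NMYC, against 36.2 and 149 CPM in parental cells (-0.76 ± 0.86 SE; 0.31 without parental replicate 2). FOLH1, the gene of prostate-specific membrane antigen, was the lowest member with 3 sgRNAs at -1.51, with 111 and 60.7 CPM in NMYC against 56.9 and 509 CPM in parental cells, and stood at 0.51 without parental replicate 2.

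Genes of the basic machinery, which most cells need for growth, came next. The cytosolic ribosome had 43 of its 72 tested genes under the median gene (59.7%) and a median log2 difference of -0.25. By ranks 9 members were lower (12.5%) and 5 higher (6.94%) before adjustment, against 5% and 5.16% of all genes, and 0 passed. The median became -0.01 without parental replicate 2 and -0.46 without parental replicate 1. Levels relative to the median gene were -0.32 and -0.20 in NMYC, against -0.22 and 0.19 in parental cells, so parental replicate 2 alone lay above the median gene. RPL31 was the lowest member with 3 sgRNAs, at 17.5 and 52.0 CPM in NMYC against 50.5 and 314 CPM in parental cells (-2.18 ± 1.04 SE; -0.61 without parental replicate 2), and RPL23A the highest, at 19.3 and 32.8 CPM in NMYC against 12.8 and 8.89 CPM in parental cells (1.47 ± 0.99 SE; 0.95 without parental replicate 2).

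The proteasome list lay lowest of the 19 lists. Among its 32 tested genes 23 lay under the median gene (71.9%), and the median was -0.38. It was -0.63 without parental replicate 2 and -0.12 without parental replicate 1. By ranks 5 were lower (15.6%) and 2 higher (6.25%) without adjustment, against 5% and 5.16% of all genes, and 0 passed. Relative levels were -0.34 and -0.63 in NMYC, against 0.06 and -0.30 in parental cells, with the NMYC libraries on the low side and NMYC replicate 1 next to parental replicate 2. PSMD14, the deubiquitinase of the proteasome lid, had 29.0 and 19.1 CPM in NMYC, against 63.2 and 178 CPM in parental cells (-2.12 ± 0.87 SE; -1.47 without parental replicate 2; edgeR adjusted p = 0.765). PSMD4, a ubiquitin receptor of the proteasome, had 57.3 and 55.9 CPM in NMYC, against 26.1 and 14.9 CPM in parental cells (1.67 ± 0.78 SE; 1.04 without parental replicate 2).

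RNA polymerase II and Mediator genes had 41 of 69 members below the median gene (59.4%) and a median of -0.28, which was -0.22 without parental replicate 2 and -0.55 without parental replicate 1. Both NMYC libraries lay below both parental ones for 20 of them (29%) and above both for 4 (5.8%), against 18.7% and 15% of all genes. By ranks 5 were lower and 3 higher without adjustment. MED22, a subunit of the Mediator head, had 9.66 and 2.47 CPM in NMYC, against 13.94 and 63.8 CPM in parental cells (-2.46 ± 1.03 SE; -1.28 without parental replicate 2), and MED26 had 62.7 and 59.2 CPM in NMYC, against 32.3 and 13.05 CPM in parental cells (1.63 ± 0.79 SE; 0.84 without parental replicate 2). Neither passed (edgeR adjusted p = 0.769 and 0.823). For MED26, 2 of its 3 sgRNAs were lower in NMYC, one of them with 0 and 0 counts against 99 and 15 in parental cells. Its positive sum rests on the remaining sgRNA, with 1093 and 724 counts in NMYC against 255 and 70 in parental cells.

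Aminoacyl-tRNA synthetase genes lay on the other side. These enzymes load tRNAs with amino acids. Below the median gene lay 6 of 23 (26.1%), and the list median was 0.47. It was 0.58 without parental replicate 1 and -0.21 without parental replicate 2. Relative levels were 0.13 and -0.04 in NMYC, against -0.02 and -0.90 in parental cells, so the value rests on parental replicate 2. By ranks 1 was lower and 2 higher without adjustment, and 0 passed. AARS, now AARS1, the alanine enzyme, was the highest with 41.0 and 16.9 CPM in NMYC against 17.4 and 3.87 CPM in parental cells (log2 difference 1.65; 0.65 without parental replicate 2). IARS, now IARS1, the isoleucine enzyme, was the lowest with 20.1 and 35.4 CPM in NMYC against 58.3 and 111 CPM in parental cells.

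Spliceosome genes had 26 of 62 members below the median gene (41.9%) and a median of 0.19, which was 0.15 without parental replicate 2 and 0.09 without parental replicate 1. By ranks 3 were lower and 5 higher without adjustment. Relative levels were -0.20 and -0.23 in NMYC, against -0.31 and -0.33 in parental cells. DHX8, a helicase that releases spliced mRNA, was the highest with 3 sgRNAs at 1.33 and the core protein gene SNRPF the lowest at -1.65. Without parental replicate 2 these values were 0.61 for DHX8 and 0.58 for SNRPF. DNA replication genes had 20 of 47 below (42.6%), a median of 0.13 (-0.13 without parental replicate 2), and 1 lower and 1 higher by ranks. WDHD1, which couples helicase and polymerase alpha, had 50.2 and 18.9 CPM in NMYC, against 91.9 and 256 CPM in parental cells (-2.12 ± 0.98 SE; -1.49 without parental replicate 2). RFC3, a subunit of the sliding clamp loader, had 58.4 and 31.5 CPM in NMYC, against 14.7 and 12.6 CPM in parental cells (1.93 ± 0.84 SE).

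Mitosis genes had 29 of 58 below the median gene (50%) and a median of -0.02, which was -0.12 without parental replicate 2 and 0.10 without parental replicate 1. By ranks 4 were lower and 1 higher without adjustment. The list held members apart in both directions. NUF2, a kinetochore protein that binds microtubules, had 15.6 and 16.3 CPM in NMYC, against 53.0 and 118 CPM in parental cells, with all 3 sgRNAs lower (-2.21 ± 0.82 SE; -1.81 without parental replicate 2). NCAPG, a condensin subunit, had 52.7 and 42.5 CPM in NMYC, against 8.51 and 11.3 CPM in parental cells, with all 3 sgRNAs higher (2.47 ± 0.86 SE; 2.40 without parental replicate 2). Some of these sgRNAs overlapped between the arms. Among them were a NUF2 sgRNA with 5 and 48 counts in NMYC against 168 and 2, and an NCAPG sgRNA with 100 and 19 against 27 and 17. Another NUF2 sgRNA had 0 and 0 counts in NMYC against 129 and 1. Replicates of NCAPG lay close in both arms, and still the edgeR adjusted p was 0.765 for NCAPG and 0.752 for NUF2. At T12 NUF2 had 10.8 and 4.33 CPM in NMYC against 131 and 33.4 CPM in parental cells, again lower in NMYC, and NCAPG 77.4 and 14.4 CPM in NMYC against 58.2 and 60.4 CPM in parental cells.

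Mitochondrial respiration and translation genes had 52 of 90 below the median gene (57.8%) and a median of -0.15, with 9 lower (10%) and 7 higher (7.78%) by ranks, against 5% and 5.16% of all genes, and 0 passing. The median was 0.07 without parental replicate 2 and -0.37 without parental replicate 1. The lowest member with 3 sgRNAs was ATP5F1, now ATP5PB, a subunit of ATP synthase, with 11.1 and 14.3 CPM in NMYC against 19.7 and 187 CPM in parental cells (-2.81 ± 0.94 SE; -0.70 without parental replicate 2). The highest was NDUFB6, a subunit of respiratory complex I, with 45.4 and 40.2 CPM in NMYC against 20.6 and 2.87 CPM in parental cells (2.06 ± 0.92 SE; 0.98 without it).

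**Figure D4:**
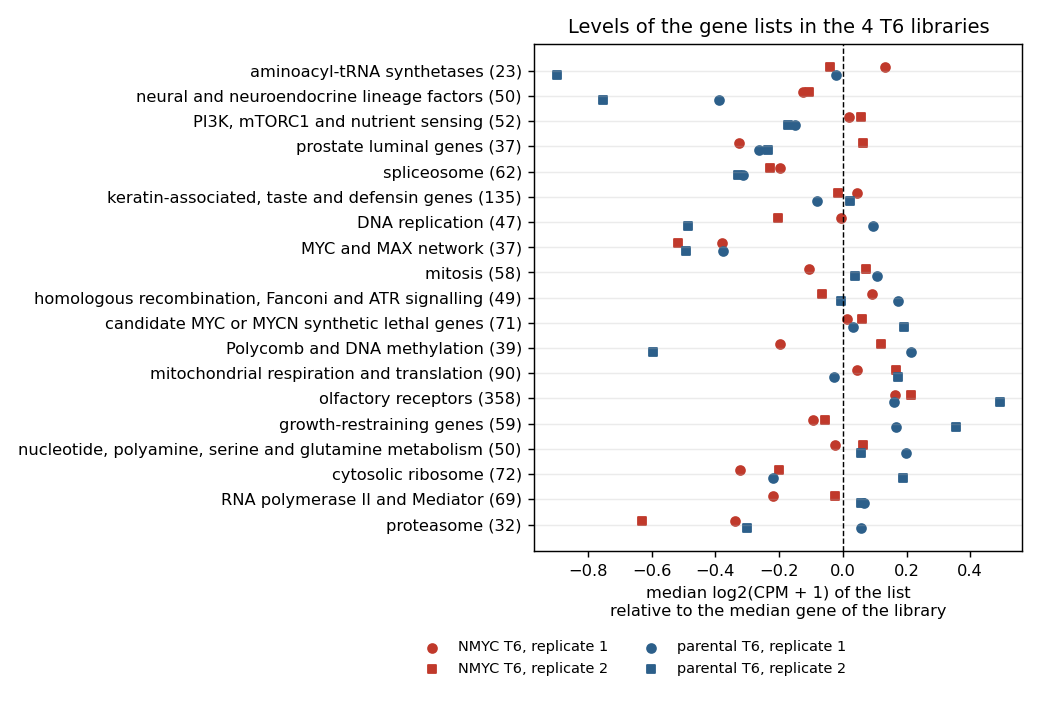
Median log2(CPM + 1) of each gene list relative to the median gene of the same library (horizontal axis), with NMYC in red and parental in blue, circles for replicate 1 and squares for replicate 2, and the number of tested genes in brackets. Lists are ordered by their median log2 difference, and in several, such as the aminoacyl-tRNA synthetases at -0.90, parental replicate 2 lies apart from the other 3 libraries.

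Growth-restraining genes, whose knockout can give an advantage, had 34 of 59 members below the median gene (57.6%) and a median of -0.19, which was -0.11 without parental replicate 2 and -0.42 without parental replicate 1. Both NMYC libraries lay below both parental ones for 21 of them (35.6%), against 18.7% of all genes, and above both for 7 (11.9%), against 15%. By ranks 2 were lower and 0 higher without adjustment, and 0 passed. RB1 kept 1 sgRNA, with 231 and 150 counts in NMYC against 50 and 130 in parental cells, so no gene value was fitted. TSC2, an inhibitor of mTORC1, was the highest with 3 sgRNAs (70.3 and 30.8 CPM in NMYC against 20.2 and 18.9 CPM in parental cells; 1.58 ± 0.81 SE). ZNRF3, a ubiquitin ligase that lowers Wnt signalling, was the lowest, at 29.8 and 2.87 CPM in NMYC against 31.7 and 170 CPM in parental cells (-2.41 ± 0.98 SE; -1.04 without parental replicate 2).

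Polycomb and DNA methylation genes had 21 of 39 below (53.8%) and a median of -0.05 that was 0.50 without parental replicate 1 and -0.34 without parental replicate 2. EZH2, the methyltransferase of Polycomb repressive complex 2, had 69.6 and 94.6 CPM in NMYC, against 71.4 and 45.7 CPM in parental cells (0.70 ± 0.81 SE; 0.13 without parental replicate 2). RNF2, the ubiquitin ligase of Polycomb repressive complex 1, had 91.6 and 114 CPM in NMYC, against 50.4 and 17.1 CPM in parental cells, with all 3 sgRNAs higher (1.82 ± 0.84 SE; 0.96 without parental replicate 2). PHF19, an accessory protein of Polycomb repressive complex 2, had 17.7 and 30.8 CPM in NMYC, against 46.4 and 188 CPM in parental cells, with all 3 sgRNAs lower (-2.06 ± 0.89 SE; -1.01 without it). By ranks 2 members were lower (5.13%) and 4 higher (10.3%), and 0 passed.

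The remaining lists had medians between -0.20 and 0.20. Homologous recombination, Fanconi and ATR signalling genes had 25 of 49 below the median gene and a median of -0.04 (-0.17 without parental replicate 2), with 2 lower and 2 higher by ranks. HUS1, a subunit of the checkpoint clamp, had 12.0 and 20.6 CPM in NMYC, against 24.5 and 125 CPM in parental cells (-1.98 ± 0.85 SE; -0.66 without parental replicate 2). At T12 it had 66.8 and 85.2 CPM in NMYC, against 12.9 and 15.7 CPM in parental cells, so the NMYC libraries were the higher ones there. BRIP1, a helicase of the Fanconi pathway, was the highest member at 1.52 ± 0.78 SE and 0.87 without parental replicate 2. Nucleotide, polyamine, serine and glutamine metabolism had 27 of 50 below, a median of -0.20 (-0.12 without parental replicate 2), and 1 lower and 1 higher by ranks. It had AHCY, the hydrolase of S-adenosylhomocysteine, lowest at -2.36 ± 0.93 SE and -1.38 without parental replicate 2, and SLC3A2, the heavy chain of amino acid transporters, highest of those with 3 sgRNAs at 0.96 ± 0.83 SE and 0.04 without it. PI3K, mTORC1 and nutrient sensing had 24 of 52 below, a median of 0.20 (0.27 without parental replicate 2 and -0.04 without parental replicate 1), and 0 lower and 2 higher by ranks. It had FNIP2, a partner of folliculin, highest at 1.76 ± 0.77 SE and EIF4EBP1, the translation repressor under mTORC1, lowest at -1.49 ± 1.01 SE and -0.41 without parental replicate 2. CLPX, the unfoldase of a mitochondrial protease, had 30.1 and 12.2 CPM in NMYC, against 20.7 and 71.3 CPM in parental cells (-0.91 ± 0.85 SE; -0.05 without parental replicate 2), and YAE1D1, now YAE1, had 47.5 and 13.5 CPM in NMYC, against 37.9 and 47.2 CPM in parental cells (-0.27 ± 0.81 SE).

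Single genes of families mostly expressed in other tissues also lay far apart between the arms. Olfactory receptors had 202 of 358 tested genes below the median gene (56.4%) and a median of -0.18 (-0.01 without parental replicate 2), with 25 lower (6.98%) and 13 higher (3.63%) by ranks, against 5% and 5.16% of all genes. OR6V1 had 9.77 and 6.38 CPM in NMYC, against 34.9 and 143 CPM in parental cells, with all 3 sgRNAs lower (-3.25 ± 0.89 SE; -2.19 without parental replicate 2; edgeR adjusted p = 0.752). OR5R1, now OR8U3, had 83.4 and 109 CPM in NMYC, against 26.7 and 12.2 CPM in parental cells, with all 3 sgRNAs higher (2.51 ± 0.83 SE; 1.77 without parental replicate 2; edgeR adjusted p = 0.762). OR6V1 lay further from 0 than NUF2, named above, with and without parental replicate 2, and OR5R1 lay above NCAPG with all 4 libraries but below it without parental replicate 2. Keratin-associated, taste and defensin genes had 59 of 135 below (43.7%) and a median of 0.13 (0.19 without parental replicate 2), with 6 lower (4.44%) and 11 higher (8.15%) by ranks. The bitter taste receptor gene TAS2R43, which has near-identical relatives, was the lowest of these with 3 sgRNAs (-3.12 ± 1.05 SE; -1.04 without parental replicate 2), and KRTAP5-1 the highest (2.25 ± 1.20 SE; 1.01 without parental replicate 2).

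The T6 difference showed little relation to the differences at the other time points. Over 18064 genes, which share sgRNAs, infections and scaling and are not independent replicates, the difference NMYC minus parental on the log2(CPM + 1) scale at T0 had a Spearman correlation of 0.0022 with the T6 difference. At T12 the correlation was 0.0705. Of the 903 genes lower by ranks at T6, 425 (47.1%) also lay below the median gene at T0 and 492 (54.5%) at T12, against 50% of all genes. Of the 851 genes lower by summed counts, 476 (55.9%) lay below the median gene at T12 and 404 (47.5%) at T0. For the 932 genes higher by ranks these were 397 (42.6%) and 491 (52.7%). For the 222 genes higher by summed counts they were 81 (36.5%) and 117 (52.7%). Each set thus leaned to its T6 side at T12 and slightly to the other side at T0, which was not tested. A fit of all 10 libraries, T0 included, was used to test whether the difference between the arms changed from T6 to T12. It passed 0 of 18064 genes, with 783 at an unadjusted p under 0.05 and a smallest edgeR adjusted p of 0.202.

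**Figure D5:**
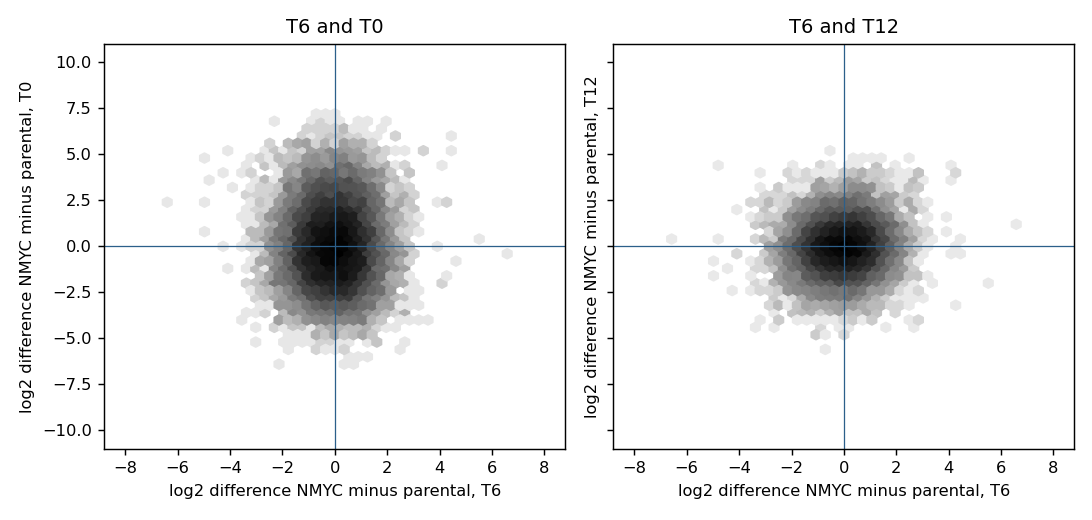
Log2 difference NMYC minus parental per gene at T6 (horizontal axes) against that at T0 (left, 1 library per arm) and at T12 (right, 2 libraries per arm), relative to the median gene, with darker cells holding more of the 18064 genes on a log scale. Both clouds are centred on 0 with no visible slope, and the Spearman correlations are 0.0022 and 0.0705.

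The libraries at T6 also did not sort by arm against T0, and against T12 only the NMYC libraries did so clearly. NMYC replicates 1 and 2 correlated at 0.476 and 0.461 with the NMYC T0 library and at 0.433 and 0.424 with the parental T0 library. Parental replicates 1 and 2 likewise correlated more with NMYC T0, at 0.485 and 0.405, than with parental T0, at 0.445 and 0.376 (Spearman over all listed sgRNAs). Against T12, NMYC replicate 1 correlated at 0.509 and 0.495 with the NMYC libraries and at 0.449 and 0.462 with the parental ones. For NMYC replicate 2 these were 0.512 and 0.487, against 0.433 and 0.45. Parental replicate 1 stood at 0.486 and 0.464 with NMYC T12 and at 0.515 and 0.481 with parental T12. Parental replicate 2 stood at 0.404 and 0.384, against 0.396 and 0.443. The parental T0 library had a median of 84 counts per sgRNA and 6.17% of sgRNAs at 0, against 113 and 2.98% in the NMYC T0 library. The most abundant 1% of sgRNAs held 9.14% and 9.35% of their counts. Why both arms correlated more with NMYC T0 was not tested. The arm of each T0 library rests on its label alone and could not be checked, which holds also for the T0 values given per arm.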

How the data were processed

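The deposited values are raw, unscaled counts of each sgRNA in each library. MAGeCK is named per the submitters' processing notes, with no version. For trimming, mismatches and the guide reference, nothing was given in the sources used here. Columns were matched by name, leaving 0 unmapped. Symbols were looked up in a RefSeq gene table of GRCh38.p14: 17200 were current, 1334 had 1 synonym, 59 had several and 93 had none.

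The 4 T6 libraries were fitted in edgeR 4.0.16 (R 4.3.3) with TMM factors and the quasi-likelihood test, leaving 2 residual degrees of freedom, on sgRNAs and on counts summed per gene. The SE of a log2 difference is the size of that difference before centring, divided by the square root of the test's F. The p-values, and the sign behind the counts of lower and higher calls, also belong to the difference before centring. Rank aggregation used sgRNAs with a one-sided p up to 0.25 and an exact null for genes with 2 or 3 sgRNAs. All p-values were adjusted by Benjamini-Hochberg over the whole table at 0.05. The fits were run on simulated counts, where recovery of known changes was required only at a dispersion far below that of these data. Recovery at the dispersion of these data is not given, so the simulation does not show what the fits could detect here. Alternatives were DESeq2 1.42.0, other size factors, filters, a fit of all 10 libraries, a replicate block and leaving out each library. Replicate numbers were checked for pairing: the replicate 1 minus 2 differences of the 2 arms correlated at 0.0055 over sgRNAs, so the numbers do not pair the cultures.

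Members, lists and alternatives were chosen with earlier results of these data known. Named genes were, per direction, the 5 with the smallest p by ranks (with 3 sgRNAs), by summed counts and by single sgRNA, then a fixed set (some of its genes are not reported here), and the lowest and highest member of each list with 3 sgRNAs.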

Additional observations from a re-analysis of the deposited data

How the results depend on the processing

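Rank aggregation passed 0 genes under every alternative. Relative to 0 calls by edgeR, single sgRNAs lower and higher numbered 81 and 3 with no filter on low counts (1 non-targeting among the 81), 2 and 0 among sgRNAs with at least 30 T0 counts in both arms (MPEG1 and UBXN10), and 496 and 161 by DESeq2. Genes by summed counts numbered 1 lower (STXBP2) with median-of-ratios factors, with non-targeting factors and with no filter, and 17 lower and 4 higher by DESeq2. A mean count of at least 50 and a fit of all 10 libraries gave 0 calls. With the replicate block 5 sgRNAs (AP5Z1, C5orf60, GRAMD1C, S100A3 and TRMT2B) and 6 genes (STXBP2, TBC1D1, LOC100507462, MRPL46, GOLGA8B and PCM1) passed as lower and 0 as higher. Because the numbers do not pair the cultures, this is no paired analysis. Leaving out 1 library gave 0 to 1794 lower and 0 to 127 higher sgRNAs, and 0 to 2441 lower and 0 to 465 higher genes, all calls coming from the fit without parental replicate 1.

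Signs of some small log2 differences turned. HOXB13 stood at -0.0376 with median-of-ratios factors, -0.0305 with non-targeting factors, -0.0638 at a mean count of 50 and -0.0471 with 30 counts at T0. With 30 counts at T0, TRMT2B had 1.08, THAP6 1.73 and S100A3 0.0360. With the replicate block UBTF had 0.13. When 1 library was left out the following ranges crossed 0. The positive end came without parental replicate 2, the negative end without parental replicate 1, for GRAMD1C (-1.22 to 0.36), TRMT2B (-1.07 to 0.0413), THAP6 (-1.70 to 0.51), S100A3 (-1.14 to 0.0885), AP5Z1 (-2.39 to 1.02), NEUROG2 (-0.76 to 0.17), GRHL2 (-1.38 to 0.31), SNRPF (-2.46 to 0.58), UBTF (-2.33 to 2.87), FOLH1 (-2.30 to 0.51), RPL26 (-0.18 to 2.11), FAM160B1 (-0.38 to 0.79) and HOXB13 (-0.67 to 1.33). For SOX21 (-0.0982 to 7.03) these ends were the other way round. MYH15 ran from -0.69 without NMYC replicate 2 to 0.40 without NMYC replicate 1, and AURKA from -0.58 to 1.45. YAE1D1 ran from -1.36 without NMYC replicate 1 to 0.43 without NMYC replicate 2. Before centring, the median gene ran from -0.301 to 0.0849 over the settings. Of the 19 list medians 7 kept their sign under all 12 alternatives, those of the cytosolic ribosome, the proteasome, the spliceosome, RNA polymerase II and Mediator, neural and neuroendocrine factors, metabolism and olfactory receptors, and the other 12 changed sign under 1 to 6 of them. The cause was not tested. Of the other values of named genes and list medians under alternatives, 970 kept their direction and side of the threshold or moved by less than the spread, 59 newly passed and 52 moved.

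The comparison rests on 2 cultures per arm, and a single library differs in evenness from the rest. Median counts were 50 to 187 per sgRNA, and the common dispersion beyond counting error was 0.908 for sgRNAs and 0.343 for gene sums.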
